A study of Mus musculus with 15 samples.

Results

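Microglia taken 14 days after a single dose of the TREM2 antibody ATV:4D9 were compared with microglia taken 7 days after it, to describe how the later phase of the response declined. The comparison was made over all cells of the 3 day 14 mice and the 3 day 7 mice, which were matched to the mouse named for each cell. These mice gave 39586 of the 102043 cells in the series, 20297 at day 14 and 19289 at day 7. All animals were male C57BL/6J mice of 3.5 months with the hTfR KI allele, in which the apical domain of the human transferrin receptor replaces the mouse sequence at its own locus. ATV:4D9 joins 4D9, which binds mouse TREM2, to an antibody transport vehicle (ATV), an Fc that binds the human transferrin receptor, and its Fc carries LALA mutations that reduce binding to Fc receptors. Each mouse received 10 mg/kg once. Levels at days 7 and 14 were read beside 3 mice that received ATV:RSV, the control antibody on the same vehicle, and were sampled at day 1, and beside 3 ATV:4D9 mice of day 28. No control of day 7, 14 or 28 was used here, so the antibody and the time after dosing cannot be told apart in a comparison with ATV:RSV. The difference between day 14 and day 7 does not subtract that control. Its error and p-value, however, came from a joint fit of the mice of all groups, ATV:RSV among them. Some calls changed in a fit of the day 14 and day 7 mice alone. They are given below for ribosomal protein genes and for the genes recomputed singly.

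TREM2 is a lipid-sensing receptor of microglia that signals through the adaptor TYROBP and the kinase SYK. Microglia that respond to damage lower their homeostatic genes and raise a group of genes known as the disease-associated microglia (DAM) markers, among them Apoe, Axl, Cst7, Itgax and Clec7a, whereas another recurrent state is marked by genes that type I interferon induces. Cells that grow or divide also raise the genes of the ribosome.

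The cells were enriched from cortex and hippocampus with CD45 beads, and each library gave 5667 to 7596 cells and 32341960 to 50730013 unique molecular identifiers (UMIs). The microglia markers chosen for the check, such as P2ry12, Tmem119, Cx3cr1 and Sall1, were all detected, and their 10 genes summed to 28192 to 29286 CPM (UMIs scaled to a common library size) at day 7 and 27823 to 28652 CPM at day 14. Among the 39425 distinct barcodes of these mice, 161 occurred in more than 1 library. Some libraries stood apart. Day 7 replicate 3 held 2693 UMIs of S100a8, a neutrophil protein, against 48 and 90 in the other day 7 mice and 14 to 61 at day 14, so its neutrophil markers summed to 386 CPM beside 231 and 233 CPM. ATV:RSV replicate 1 carried more interferon-induced RNA than the other controls, for example 43.0 CPM of Ifitm3 beside 15.1 and 20.6. Markers of ependymal cells and choroid plexus summed to 497 CPM in day 14 replicate 2 beside 0.263 and 9.29 CPM in the other day 14 mice, and to 114 CPM in day 7 replicate 1 beside 4.60 and 4.68 CPM. Erythrocyte markers summed to 131 CPM in day 7 replicate 2 beside 1.67 and 0.654 CPM. Without ATV:RSV replicate 1, 706 in place of 1014 genes were called at day 7 over ATV:RSV and 89 in place of 122 at day 14.

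Each mouse was tested as the sum of its cells, and 14260 genes had enough UMIs to be tested. Of these, 192 (1.35%) differed between day 14 and day 7 at an adjusted p under 0.05 (limma-voom with the batch as a block, Benjamini-Hochberg), 176 lower at day 14 (1.23%) and 16 higher (0.112%). Most differences were falls: 28 of the lower genes fell at least 2-fold, and 0 genes rose by that much (limma-voom; edgeR called 197 genes, 177 of them lower, and 1560 genes had an unadjusted limma-voom p under 0.05). Over all genes the median difference was 0.0017 on the log2 scale, with 7038 negative and 7222 positive. In CPM, the 3 mice of each day did not overlap in 171 of the 176 lower genes and in 15 of the 16 higher genes, beside 7.69% and 5.92% of all genes tested. The genes were called from these same mice, so this lack of overlap describes them and is no separate support. By composition, 53 of the lower genes encode proteins of the cytosolic ribosome, with a median log2 fold change of -0.22, and the other 123 had a median of -0.47. When libraries were scaled by their size alone the split was 127 lower and 40 higher, and the median of all genes moved to 0.043. Without day 7 replicate 3, 92 genes were called lower and 7 higher.

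**Figure D1:**
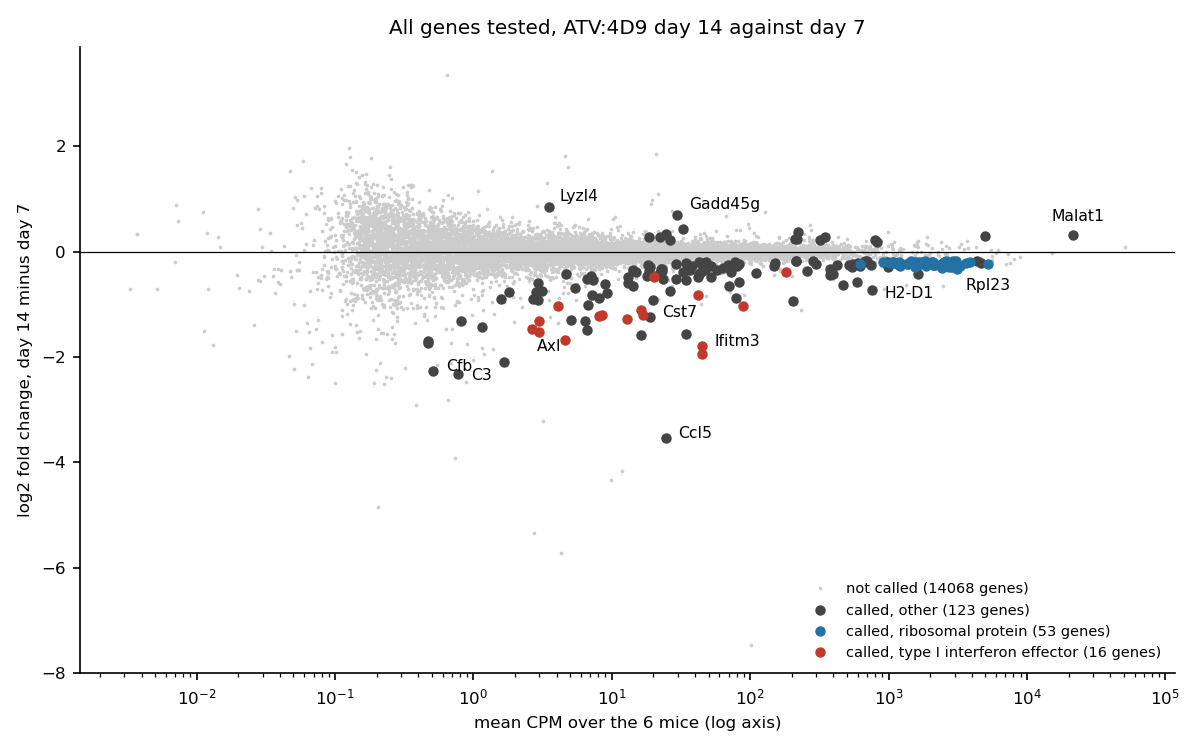
Each point is 1 of the 14260 genes tested, with its mean CPM over the 6 mice on the x axis (log scale) and the log2 fold change of day 14 minus day 7 on the y axis. The called genes lie almost all below 0: ribosomal protein genes (53, blue) form a narrow band at high levels, interferon effectors (16, red) lie mostly further below 0 at lower levels, and the other 123 called genes (dark) are 107 lower and 16 higher.

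Genes that type I interferon induces had the lowest median of the lists examined. In the list of 33 effectors tested, 16 were called lower and 0 higher at day 14, all 33 had a negative log2 fold change and the median was -1.11, beside 0.0017 over all genes. In CPM, 31 of the 33 did not overlap in the lower direction, beside 7.69% of all genes, of which 1.23% were called lower. Ifitm3, which encodes a membrane protein that blocks virus entry, measured 75.6, 63.6 and 68.6 CPM in the day 7 mice of batches 1, 2 and 3 and 20.1, 24.5 and 17.2 CPM at day 14. Every day 14 mouse lay far below the lowest day 7 mouse, and the log2 fold change was -1.79 (SE 0.228 and adjusted p = 0.00206 by limma-voom). Ifi27l2a, an interferon-induced mitochondrial protein, went from 74.5, 67.2 and 68.1 CPM to 14.2, 28.7 and 17.3 CPM, a log2 fold change of -1.93 (adjusted p = 0.00937 by limma-voom), and was not called without day 7 replicate 3, day 14 replicate 1 or day 14 replicate 3. Bst2, or tetherin, which holds budding viruses at the cell surface, started higher and changed less. It measured 208, 191 and 216 CPM at day 7 and 149, 160 and 160 CPM at day 14, without overlap, and its log2 fold change was -0.39 (SE 0.0582 and adjusted p = 0.00384 by limma-voom). The nucleic acid sensor Zbp1 (-1.46), the 2′-5′ oligoadenylate synthetase-like gene Oasl2 (-1.67) and its relative Oas1a (-1.32), the interferon-induced gene Mx1 (-1.03) and the Ifit genes Ifit2 (-1.22), Ifit3 (-1.28) and Ifit3b (-1.53) fell as well, although Ifit3b lost its call in 7 of 20 alternatives. Isg15, the ubiquitin-like protein whose level is often read as the interferon state of a cell, measured 32.1, 24.5 and 27.7 CPM at day 7 and 15.5, 16.3 and 13.9 CPM at day 14. These values do not overlap, but its log2 fold change of -0.89 missed the threshold (adjusted p = 0.0559 by limma-voom). Isg15 was called in 6 of 20 alternatives, the fit of the 6 mice alone among them.

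Sequence upstream of some of these genes is shown because many interferon-induced promoters carry the interferon-stimulated response element, a short sequence through which interferon signals reach a gene. The letters GAAA, any 2 bases and GAAA again were searched on both strands of the RefSeq promoters (GRCm38.p6; 250 bases before and 50 bases after each annotated start) and occurred in 3.44% of the 32851 promoters. Counted by gene, 3.99% of 27025 genes had such a promoter. Among the 33 effectors, 24 had a promoter in the table and 15 of these held the letters, but with 9 genes missing no share over the list is drawn. The stretches below are from chr8:71537562-71537627 (Bst2, minus strand), chr5:120907526-120907570 (Oas1a, minus strand), chr19:34583348-34583441 (Ifit3, plus strand), chr19:34607744-34607837 (Ifit3b, plus strand) and chr2:122147523-122147582 (B2m, plus strand), each written 5′ to 3′ along its gene and ending before the start site. Capitals mark the letters searched, which appear as TTTC, any 2 bases and TTTC where the match is on the opposite strand, and matches that overlap are run together.
Bst2: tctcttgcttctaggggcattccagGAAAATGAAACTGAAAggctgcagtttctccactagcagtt
Oas1a: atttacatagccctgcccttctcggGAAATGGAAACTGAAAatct
Ifit3: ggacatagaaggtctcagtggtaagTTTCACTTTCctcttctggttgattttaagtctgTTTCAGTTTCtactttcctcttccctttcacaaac
Ifit3b: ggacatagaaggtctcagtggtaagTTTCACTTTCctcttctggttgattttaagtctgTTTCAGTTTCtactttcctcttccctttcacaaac
B2m: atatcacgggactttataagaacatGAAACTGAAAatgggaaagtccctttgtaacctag
The stretches of Ifit3 and Ifit3b are the same letters, and the genes are close paralogs whose reads may be split between them, so their separate values are uncertain. A match is a description of these letters and not a measured binding site.

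Regulators of the interferon response were also measured. Irf9, a DNA-binding factor of this response, measured 31.8, 32.1 and 31.1 CPM at day 7 and 26.0, 26.8 and 27.5 CPM at day 14, with no overlap, and fell by 0.24 on the log2 scale (SE 0.0442 and adjusted p = 0.0124 by limma-voom). Irf7, which amplifies interferon production, fell by 1.30 (adjusted p = 0.0346 by limma-voom). Of 13 interferon-inducible GTPases, a group that responds mainly to type II interferon, 0 were called in limma-voom. Their median was -0.26, with 11 of 13 negative, and the values of single members ran from -1.94 for Iigp1 to 0.19 for Gbp7. Irf7 lost its call in 11 of 20 alternatives, each omission of 1 of the 6 mice among them, and Irf9 in 6. The number of interferon effectors called was 6 to 10 after any such omission, lowest without day 14 replicate 1.

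The control mice are shared by both days, and replicate 1 among them was high for interferon-induced genes. Set beside them, the interferon list had a median log2 fold change of 0.76 at day 7 and -0.20 at day 14 over ATV:RSV. At day 7, 17 of its 33 members were called higher, where 7.11% of all genes were called, 4.75% higher and 2.36% lower. At day 14 0 of them were called by limma-voom, where 0.856% of all genes were called, 0.806% higher and 0.0491% lower. Its summed level was 1007, 941 and 963 CPM at day 7 and 576, 625 and 604 CPM at day 14. In ATV:RSV it was 796.5 CPM in replicate 1 and 524 and 583 CPM in the others. The day 14 sums lay within this range, whose upper end is replicate 1 alone, and 625 and 604 CPM lay above the other controls. At day 28 the summed level was 564 to 616 CPM, and 0 members of the list were called against day 14 (limma-voom).

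**Figure D2:**
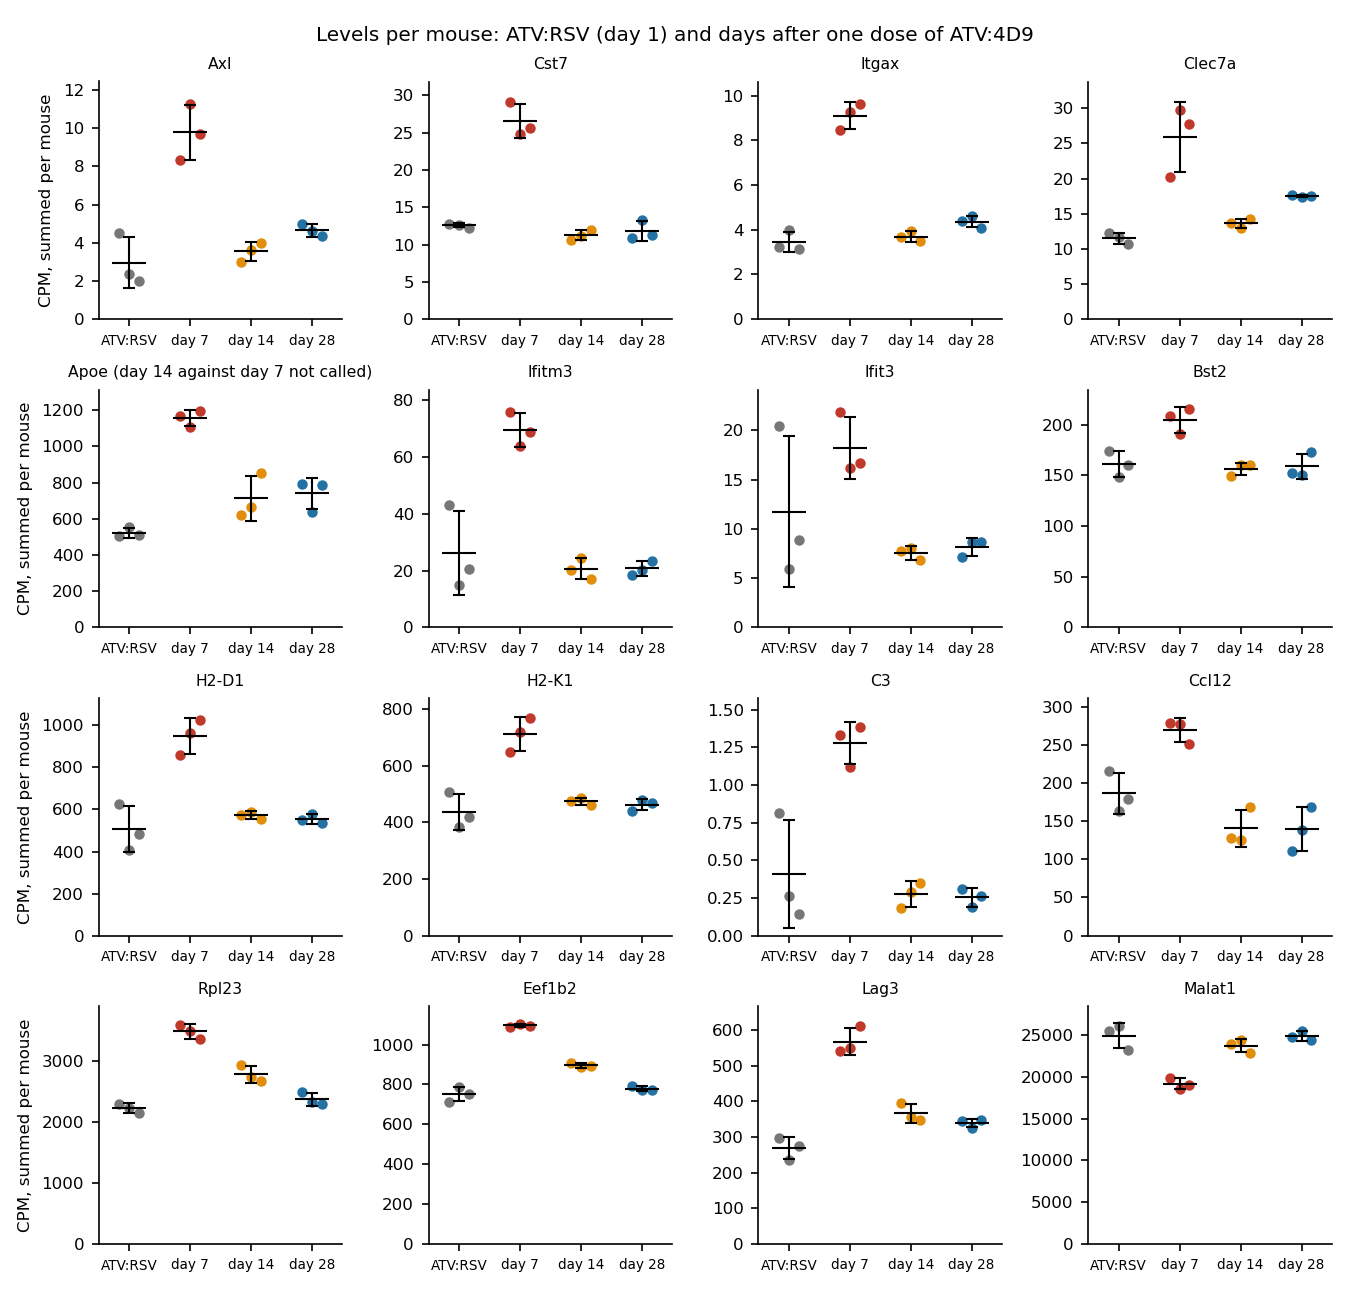
CPM of 16 genes (1 panel each) in the ATV:RSV mice and in ATV:4D9 mice of days 7, 14 and 28, with 1 point per mouse, the mean as a bar and the SD over 3 mice as whiskers; each y axis starts at 0. Among the groups drawn, Axl, Cst7, Itgax, Ifitm3, Ifit3 and C3 are highest at day 7. For the last 3, 1 ATV:RSV mouse is also high. Rpl23 and Eef1b2 step down over days 7, 14 and 28, Malat1 is low at day 7, and Apoe was not called between days 14 and 7. The ATV:4D9 mice of day 1 are not drawn. Their means were higher than at day 7 for Axl (36.7 CPM), Cst7 (281), Itgax (24.6) and Ifitm3 (610). They were lower for Apoe (405) and Rpl23 (2915.5).

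MHC class I, which presents peptides from inside the cell to CD8 T cells, declined in its heavy and light chains and in some genes of peptide loading. Of 25 genes tested, 8 were called lower and 0 higher, beside 1.23% and 0.112% of all genes, with a median of -0.13. The classical heavy chain H2-D1 measured 859, 961 and 1027 CPM at day 7 and 573, 590 and 554 CPM at day 14. Each day 14 mouse lay below every day 7 mouse, and the log2 fold change was -0.73 (SE 0.112 and adjusted p = 0.00454 by limma-voom). H2-K1, the other classical heavy chain of this strain, went from 648, 718 and 769 CPM to 474, 487 and 462 CPM (-0.58, adjusted p = 0.00397 by limma-voom), and reads of these similar genes could be exchanged. B2m, the light chain that all of them share, went from 1869, 1904 and 1867 CPM to 1436, 1379 and 1376 CPM (-0.43, SE 0.0600 and adjusted p = 0.00272 by limma-voom). The nonclassical genes H2-Q6 (-1.58) and H2-Q7 (-1.56) changed most, but they are near-identical and could exchange reads. Nlrc5, the transactivator of this gene group, fell by 0.77 and the peptide transporter Tap1 by 0.27. The other transporter subunit Tap2 (0.01), the immunoproteasome subunits Psmb8 (-0.11), Psmb9 (-0.08) and Psmb10 (-0.04) and tapasin, Tapbp (-0.05), were not called. Over ATV:RSV the list had a median of 0.19 at day 7, with 14 members called higher, and of 0.07 at day 14, with 0 called (limma-voom). The count of 8 was 9 without day 7 replicate 1 and 3 to 5 without any other 1 of the 6 mice, and H2-D1, H2-K1 and B2m were called each time, whereas H2-Q6 lost its call in 3 of these omissions and H2-Q7 in 4. In MHC class II, H2-Oa, which restrains peptide loading, was the called member of 8 (-0.31, adjusted p = 0.0081 by limma-voom), and the invariant chain Cd74 had a log2 fold change of -0.09 (adjusted p = 0.879 by limma-voom).

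The DAM markers were called lower in part. Of 28 tested, 9 were called lower and 0 higher (Axl, Cst7, Itgax, Clec7a, Cd63, Lyz2, B2m, Timp2 and Cd52), 26 of 28 were negative, 19 did not overlap in the lower direction and the median was -0.28. Among all 14260 genes, 1.23% were called lower, 7038 were negative and 7.69% did not overlap in that direction. The count was 5 without day 7 replicate 2, 6 without day 7 replicate 3 and 14 with DESeq2. Cst7, a cystatin that inhibits lysosomal proteases, had the lowest adjusted p of all genes. It measured 29.1, 24.8 and 25.6 CPM at day 7 and 10.6, 11.2 and 12 CPM at day 14, and its log2 fold change was -1.23 (SE 0.0847 and adjusted p = 1.39e-05 by limma-voom). With 12.8, 12.7 and 12.3 CPM in ATV:RSV, the day 14 mice lay just below the controls. Itgax, or CD11c, an integrin subunit, went from 8.46, 9.26 and 9.61 CPM to 3.66, 3.94 and 3.48 CPM (-1.31, SE 0.104 and adjusted p = 4.66e-05 by limma-voom). Axl, a receptor kinase that recognizes phosphatidylserine on dying cells through GAS6, went from 8.35, 11.3 and 9.71 CPM to 3.01, 3.63 and 3.99 CPM. These values are far apart for the spread within each day, with a log2 fold change of -1.48 (SE 0.191 and adjusted p = 0.00206 by limma-voom). The day 14 mice lay below the 4.50 CPM of ATV:RSV replicate 1 and above the 2.39 and 2.00 CPM of the other controls. Clec7a, or dectin-1, a receptor for fungal glucans, went from 20.3, 29.7 and 27.7 CPM to 13.7, 12.9 and 14.2 CPM (-0.91, SE 0.124 and adjusted p = 0.00259 by limma-voom). It remained above the 10.7 to 12.2 CPM of ATV:RSV in every day 14 mouse, and at day 28 it measured 17.7, 17.3 and 17.5 CPM, but neither day 14 over ATV:RSV nor day 28 over day 14 was called (limma-voom).

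Apoe, the lipid carrier that leads the DAM programme, was a different case. It measured 1167, 1106 and 1196 CPM at day 7 and 622, 663 and 852 CPM at day 14, beside 503 to 553 CPM in ATV:RSV. The 3 and 3 mice did not overlap, and the spread was wider at day 14 than at day 7. The log2 fold change of -0.71 (SE 0.169) missed the threshold (adjusted p = 0.0603 by limma-voom). Apoe was called in 6 of 20 alternatives. Among them were the fit of the 6 mice alone, the fit without the ATV:4D9 day 1 mice and the omission of day 14 replicate 3. The ATV:4D9 day 1 mice, which share the main fit, measured 571, 340 and 304 CPM. At day 28 it measured 794, 639 and 786 CPM. Other DAM genes gave no call: Cd9 (-0.25, adjusted p = 0.101 by limma-voom), the lipase Lpl (-0.32), Spp1 or osteopontin (0.15), the lysosomal protease Ctsd (-0.03) and the scavenger receptor Cd68 (-0.04). Trem2 itself, the target of the antibody, measured 2605, 2634 and 2606 CPM at day 7 and 2500, 2554 and 2580 CPM at day 14. Its log2 fold change was -0.04 (SE 0.0432 and adjusted p = 0.809 by limma-voom), so the days differed by less than its error although the mice did not overlap. Of 14 genes of TREM2 signalling, 0 were called (limma-voom), Tyrobp among them (-0.11, adjusted p = 0.287 by limma-voom) and Syk (-0.02), and the median was -0.02. Tfrc, the mouse transferrin receptor gene that holds the knock-in, had 5.97, 6.59 and 5.29 CPM at day 7 and 4.33, 4.71 and 5.24 CPM at day 14 (-0.30, adjusted p = 0.247 by limma-voom). How the human sequence affects these counts, which were made on the mouse genome, was not tested.

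Several secreted immune genes fell as well. C3, the central complement protein, measured 1.33, 1.12 and 1.39 CPM at day 7 and 0.182, 0.291 and 0.352 CPM at day 14, from as few as 9 UMIs in a mouse. The groups do not overlap, and the log2 fold change was -2.31 (SE 0.398 and adjusted p = 0.00857 by limma-voom). C4b, which acts upstream of it, fell by 2.10 (adjusted p = 0.00397 by limma-voom), and these were the called members of 12 complement genes with a median of -0.09. Cfb, a protease of the alternative pathway that was on no list and was picked after its values were seen, fell by 2.27. Among 24 chemokines and cytokines 4 were called lower and 0 higher, beside 1.23% and 0.112% of all genes, with a median of -0.33. Ccl12, a chemokine that draws monocytes, measured 279, 277 and 251 CPM at day 7 and 128, 126 and 169 CPM at day 14 (-0.94, SE 0.140 and adjusted p = 0.00384 by limma-voom), and 2 of the 3 day 14 mice were below the lowest ATV:RSV mouse at 164 CPM. Cxcl16, the ligand of CXCR6, went from 97.5, 96.6 and 103 CPM to 66.5, 71.7 and 63.3 CPM (-0.57, SE 0.0633 and adjusted p = 0.000663 by limma-voom), and lay above the 54.2 to 61.1 CPM of ATV:RSV in every day 14 mouse, although day 14 over ATV:RSV was not called (0.24, adjusted p = 0.159 by limma-voom). Cxcl10, an interferon-induced chemokine, had a log2 fold change of -1.03 (adjusted p = 0.0303 by limma-voom) and lost its call in 8 of 20 alternatives, each omission of 1 of the 6 mice among them. Ccl5, a T cell attractant, had the largest called fall, from 41.0, 55.9 and 38.5 CPM to 3.76, 4.74 and 3.24 CPM, a log2 fold change of -3.54 (SE 0.788 and adjusted p = 0.0412 by limma-voom). With edgeR and with each omission of 1 of the 6 mice it was not called, and ATV:RSV replicate 1 had 39.7 CPM beside 3.76 and 1.93 in the other controls. The inflammatory cytokine Il1b, among the genes highest at day 7 over ATV:RSV, measured 244, 396 and 313 CPM at day 7 and 110, 141 and 191 CPM at day 14 and was not called (-1.12, adjusted p = 0.114 by limma-voom). Il1b was called in 2 of 20 alternatives, the fit of the 6 mice alone among them.

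Receptors on the cell surface and genes of the lysosome gave smaller counts. Fcgr4, an activating Fc receptor, measured 16.5, 17.0 and 18.4 CPM at day 7 and 10.5, 11.9 and 10.9 CPM at day 14, without overlap (-0.65, SE 0.0695 and adjusted p = 0.000663 by limma-voom), and was the called member of 9 Fc receptors. Tlr2, a receptor for bacterial lipopeptides, fell by 0.41 and was the called member of 16 Toll-like receptors and partners, but lost its call in 5 of 20 alternatives, all of them omissions of 1 of the 6 mice. Cd300lf, which binds phosphatidylserine, fell by 0.91, lost its call in 4 alternatives, and with Axl made up the called members of 12 genes of that group. Of 29 lysosomal and autophagy genes 3 were called lower: progranulin, Grn (-0.25), the tetraspanin Cd63 (-0.29) and acid alpha-glucosidase, Gaa (-0.21), of which Gaa lost its call in 11 of 20 alternatives and Cd63 in 5. Grn was at 806, 797 and 808 CPM at day 7 and at 688, 680 and 666 CPM at day 14 (adjusted p = 0.00397 by limma-voom). Of 14 cathepsins and their inhibitors, Cst7 was the called member, although 10 of the 14 did not overlap in the lower direction, beside 7.69% of all genes. Their summed level overlapped between the days, with a mean of 67042 CPM at day 7 and 69053 CPM at day 14.

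**Figure D3:**
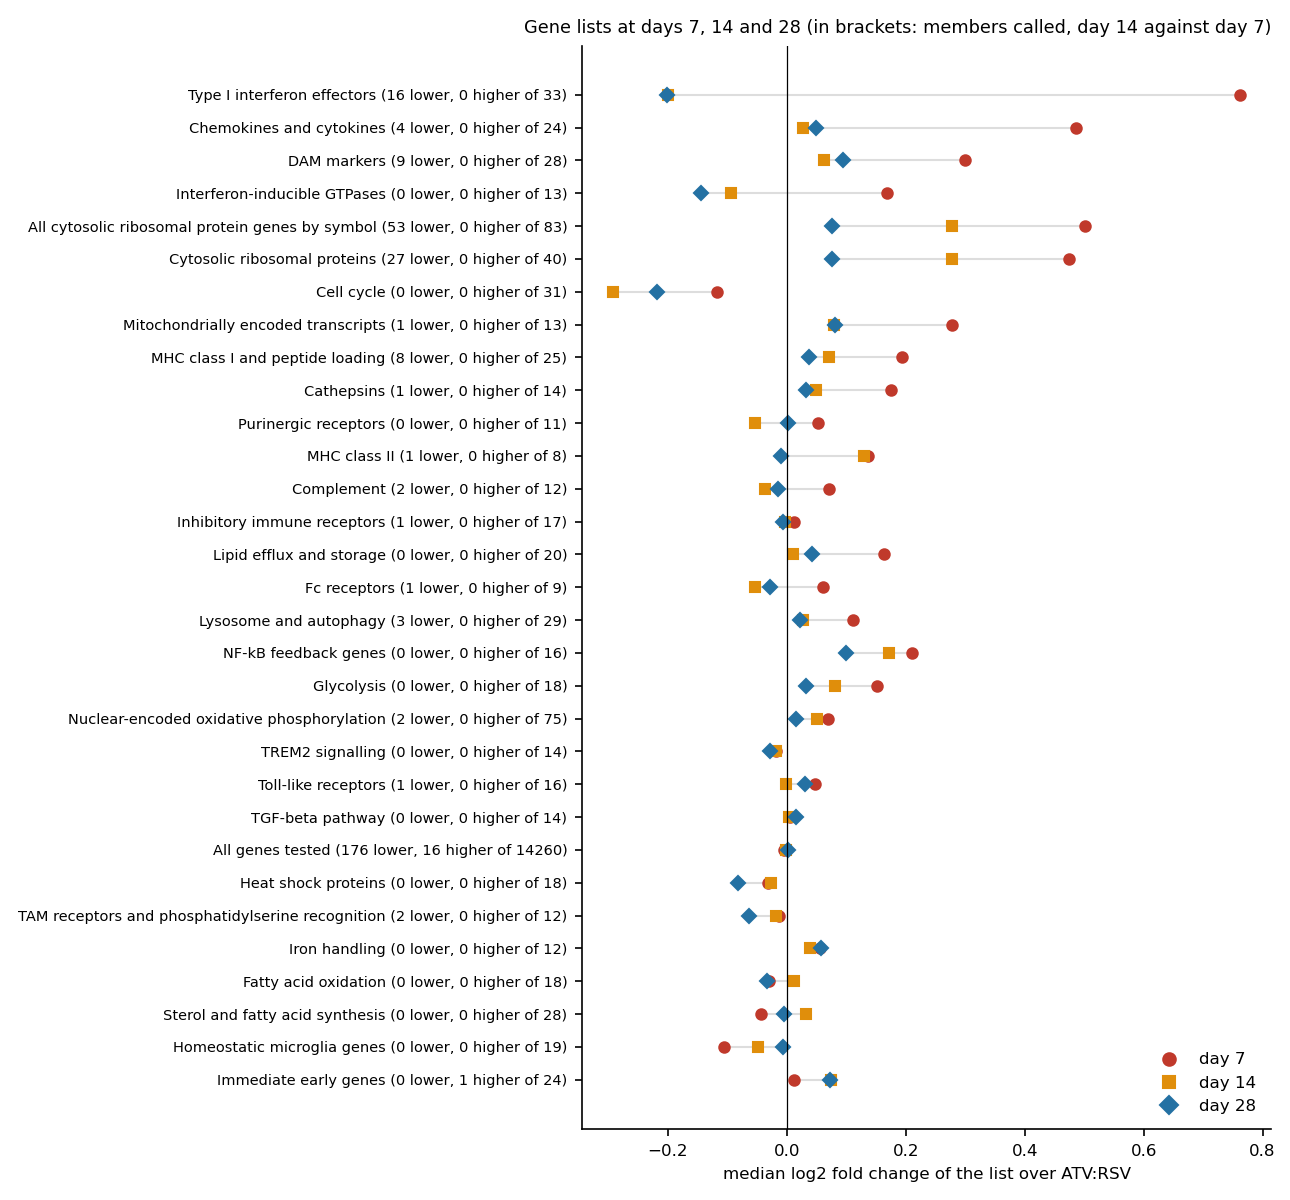
Median log2 fold change over the same ATV:RSV mice for the gene lists at day 7 (circles), day 14 (squares) and day 28 (diamonds); the brackets give the members called lower and higher between day 14 and day 7 and the number tested. The interferon effectors move from 0.76 to -0.20 between days 7 and 14, while the ribosomal protein lists stand near 0.28 at day 14 and near 0.08 at day 28. The ATV:RSV mice include replicate 1, which was high for interferon-induced genes.

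Ribosomal protein genes made up the largest group of called genes and moved by small, even steps. In the list of 40 genes, 27 were called lower, 0 higher and 39 were negative, with a median of -0.21. Over all 83 genes with such symbols, a list drawn up after the values were seen, 53 were called lower and 82 were negative, with a median of -0.22. Their summed level was 181040, 175290 and 169850 CPM in the day 7 mice of batches 1, 2 and 3 and 162140, 149010 and 143310 CPM at day 14. Batch 1 was highest on both days and the days did not overlap. Many of these genes have pseudogenes that could take some of their reads. Rpl23, of the large subunit, measured 3593, 3494 and 3355 CPM at day 7 and 2930, 2734 and 2665 CPM at day 14, a log2 fold change of -0.33 (SE 0.0324 and adjusted p = 0.000475 by limma-voom). Rpl32, also of the large subunit, fell by 0.31 and Rps19, of the small subunit, by 0.27 (adjusted p = 0.000663 and 0.00217 by limma-voom). Factors that work with the ribosome were among the other called genes: the elongation factors Eef1a1 (-0.18), Eef1b2 (-0.29) and Eef1g (-0.19), the initiation factor subunits Eif3e (-0.21) and Eif3f (-0.23), the ribosome-bound scaffold Rack1 (-0.20) and Naca (-0.17), which meets nascent chains. Gas5 (-0.34) and Zfas1 (-0.65), non-coding hosts of small nucleolar RNAs, fell too, and Zfas1 went from 86.7, 91.7 and 79.4 CPM to 57.4, 49.9 and 56.1 CPM. These factors and hosts were chosen after their values were seen. Of 75 nuclear genes of the respiratory chain 2 were called lower, Uqcrh (-0.26) and Cox4i1 (-0.20). Their median was -0.03 and 55 of 75 were negative, beside 7038 of all 14260 genes. At day 7, 14 of the 75 were called higher than ATV:RSV, beside 4.75% of all genes. Of the 83 ribosomal protein genes, 49 were called without day 14 replicate 1 and 27 to 32 without any other 1 of the 6 mice, 41 without the batch block and 20 in a fit of the 6 mice alone.

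Messages of ribosomal proteins are known for a run of pyrimidines that begins with C at the first base, the terminal oligopyrimidine tract, through which growth signals control their translation, and 4 starts are printed to show it. A C at the annotated start followed by 4 bases that are each C or T occurred in 2.51% of the 32851 promoters. Counted by gene, it occurred in 3.01% of 27025 genes and in 14 of the 62 ribosomal protein genes that had a promoter. The other 21 had none, so no share over the list is drawn. The tract was read on the strand of the gene only. The windows hold 14 bases before the start and 16 from it (RefSeq, GRCm38.p6), with capitals for the tract, at chr19:6057933-6057962 (Fau, plus strand), chr14:18270971-18271000 (Rpl15, minus strand), chr17:33955650-33955679 (Rps18, minus strand) and chr4:86857352-86857381 (Rps6, minus strand).
Fau: gcgcgcccccacttCTTCCTCTTTCTTgac
Rpl15: tgggagaaagccttCTTCCTTTCCTCTggc
Rps18: acgtcacttccgctCTCTCTTCCacaggag
Rps6: agcggaagtcgggcCTCTTTTTCgtgacgc
These data measure RNA levels and not translation.

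The called genes differed in how much of their day 7 level was left at day 14, seen against the ATV:RSV mice that these values share. They were chosen by their step from day 7 to day 14, so the levels left are a description. The 53 ribosomal protein genes called lower had a median log2 fold change over ATV:RSV of 0.48 at day 7, 0.27 at day 14 and 0.07 at day 28, and 52 of them were still called higher than ATV:RSV at day 14. The other 123 had medians of 0.64, 0.13 and 0.08, of which 17 were still called higher and 37 were below ATV:RSV at day 14, or 26 by mean CPM when ATV:RSV replicate 1, the mouse high for interferon genes, was left out (37 with it; chosen after seeing the data). These calls depend also on the error of each gene. Rpl23 was called at day 14 at 0.32 over ATV:RSV (SE 0.0325, log2 scale). H2-Q6 at 0.56 (SE 0.335) and Axl at 0.26 (SE 0.225) were not. Rpl23 kept 43.9% of its day 7 excess in mean CPM at day 14 and 11.2% at day 28, whereas Itgax kept 4.29% and 16.2%. The number of genes called between day 14 and ATV:RSV fell without the batch block and with each omission of 1 of the mice compared, most without day 14 replicate 1. Of the 115 genes called higher at day 14 over ATV:RSV, 74 were ribosomal protein genes. The others included Lag3, an inhibitory receptor of the immunoglobulin family. It measured 235 to 297 CPM in ATV:RSV, then 542, 549 and 610 CPM at day 7 and 396, 355 and 348 CPM at day 14, so that each group was apart from the next. Its log2 fold change was -0.63 between the days (SE 0.0878 and adjusted p = 0.00272 by limma-voom) and 0.45 at day 14 over ATV:RSV (adjusted p = 0.0267 by limma-voom). Igfbp4, a binding protein of insulin-like growth factors that was picked here after its values were seen, followed the same course with 41.0, 36.4 and 44.7 CPM at day 7, 27.6, 27.1 and 30.0 CPM at day 14 and 16.5 to 18.9 CPM in ATV:RSV.

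After day 14 little further was called. Day 28 differed from day 14 in 19 genes (0.133%), all lower and all ribosomal protein genes. That count was 0 with each omission of 1 of these 6 mice and 0 without the batch block, and edgeR called 5 (548 genes had an unadjusted limma-voom p under 0.05). The summed level of the 83 ribosomal protein genes was 136560, 130460 and 126980 CPM at day 28, below all day 14 mice, and 128100, 123840 and 120890 CPM in ATV:RSV.

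**Figure D4:**
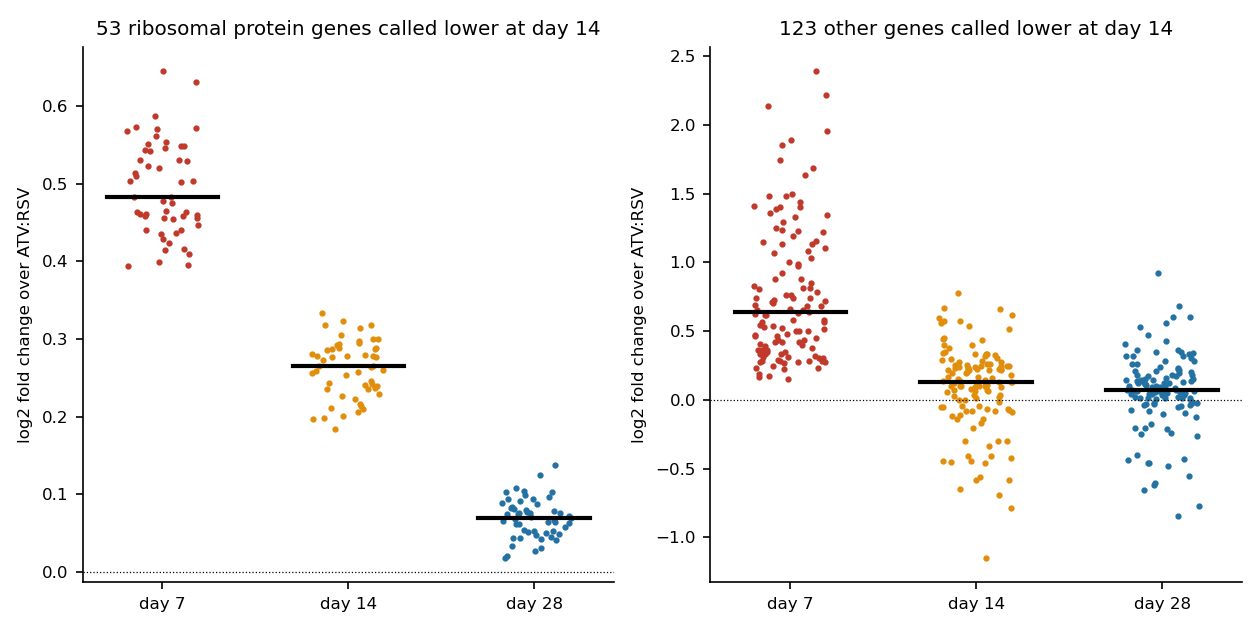
Log2 fold change over ATV:RSV at days 7, 14 and 28 for the 53 ribosomal protein genes (left) and the 123 other genes (right) called lower at day 14 than at day 7; points are genes, bars are medians, and the y axes of the panels differ. The ribosomal protein genes step down through medians of 0.48, 0.27 and 0.07, and the others move from 0.64 to 0.13 by day 14 and stand at 0.08 at day 28. The genes were chosen by the step from day 7 to day 14, so that step is a description here.

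Of the 16 genes higher at day 14, 15 had been called lower at day 7 than in ATV:RSV, and both comparisons share the day 7 mice. Malat1, an abundant nuclear non-coding RNA, measured 19883, 18556 and 19080 CPM at day 7 and 23978, 24386 and 22885 CPM at day 14. The days were well apart, with a log2 fold change of 0.31 (SE 0.0396 and adjusted p = 0.00206 by limma-voom), and ATV:RSV was at 23206 to 26068 CPM. Jun, a subunit of the AP-1 transcription factor, rose by 0.29 (SE 0.0484 and adjusted p = 0.00645 by limma-voom) from 4511, 4633 and 4320 CPM to 5275, 5883 and 5362 CPM, and was the called member of 24 immediate early genes, a group that tissue dissociation can also raise and whose median was 0.11. Gadd45g, a stress-response gene, rose by 0.69 and the lysozyme-like Lyzl4 by 0.84 (adjusted p = 0.0122 for both by limma-voom). Lyzl4 went from 2.09, 2.61 and 2.75 CPM to 3.72, 4.58 and 5.20 CPM, still under the 6.5 to 7.71 CPM of ATV:RSV. The actin bundler Fscn1 (0.24), the purine enzyme Pnp (0.27), the adaptor Dok3 (0.28), Sh3bp5 (0.27), Nav1 (0.34) and Klhdc8b (0.43) rose by less. Dok3 lost its call in 10 of 20 alternatives, Sh3bp5 in 9, Nav1 in 8, Klhdc8b in 6, Pnp, Gadd45g and Lyzl4 in 5 and Fscn1 in 3, with omissions of 1 mouse among them for each gene. Of 19 homeostatic microglia genes 0 were called (limma-voom). Their median was 0.06, 14 of 19 were positive and 7 did not overlap in the higher direction, P2ry12 with 1766, 1851 and 1658 CPM against 1970, 1983 and 1883 CPM among them (0.15, adjusted p = 0.173 by limma-voom). Among all 14260 genes, 7222 were positive and 5.92% did not overlap in that direction. Csf1r, the receptor that keeps microglia alive, had a log2 fold change of 0.00 (SE 0.0291).

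Because a summed level cannot tell fewer responding cells from less RNA in each, the genes were also counted cell by cell, after every cell had been thinned to 3385 UMIs (cells below that number were left out, 4733 of these 6 mice). The interferon effectors together gave 29.2 ± 8.99 UMIs per cell (mean ± SD over 3 mice) at the 99th percentile of cells at day 7 and 13.3 ± 0.531 at day 14, and 2.00 and 1.00 at the median cell. Both the upper tail and the median were lower at day 14, without overlap (exact permutation test of 3 against 3 mice, two-sided p = 0.1, the smallest it can give). MHC class I went from 31.3 ± 1.53 to 24.7 ± 0.577 UMIs at the 90th percentile of cells and from 49.1 ± 2.16 to 33.3 ± 0.577 at the 99th percentile. For Apoe the 90th percentile was 9.33 ± 0.577 UMIs at day 7 and 6.00 ± 1.00 at day 14, without overlap. The 99th percentiles overlapped, with differences of -15, -8.03 and -2 UMIs within batches 1, 2 and 3. The median cell had 1.00 in every day 7 mouse and a mean of 0.667 at day 14. Such counts are too low to resolve a difference in the cells below the median. The DAM markers other than Apoe gave 176 ± 7.17 and 151 ± 4.58 UMIs at the 99th percentile, without overlap. At the median they gave 88.0 ± 2.65 and 83.2 ± 3.01, where the mice overlapped but differed by -6, -3.5 and -5 within batches 1, 2 and 3. Homeostatic genes gave 263 ± 5.61 UMIs per cell on average at day 7 and 282 ± 2.55 at day 14, without overlap, beside 303 ± 11.2 in ATV:RSV. Their summed CPM per mouse, however, overlapped, with 76661 to 80677 at day 7 and 79191 to 83360 at day 14. Thinned counts do not have the scaling used for CPM, and its part in this was not tested. The median cell expressed 1461 ± 10.9 genes at day 7 and 1497 ± 12 at day 14, beside 1532 ± 4.83 in ATV:RSV, and in this measure the days did not overlap. Each of these tests without overlap gave the same exact p of 0.1, and sign flips within the 3 batches gave 0.25, also the smallest possible. The 99th percentile of Apoe and the median of the DAM markers, which overlapped, gave 0.2 by exact permutation and 0.25 by sign flips. Without thinning, the depth of the cells (5203 ± 715 UMIs at day 7 and 5525 ± 532 at day 14, overlapping) entered these values, and the mean of the DAM markers other than Apoe then differed by -4.43 UMIs per cell with an exact permutation p of 0.9. The days then also overlapped in genes per cell (exact permutation p = 0.3) and in homeostatic genes (exact permutation p = 0.2), and in batch 3 both were lower at day 14, with differences of -210 genes and -6.79 UMIs per cell.

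**Figure D5:**
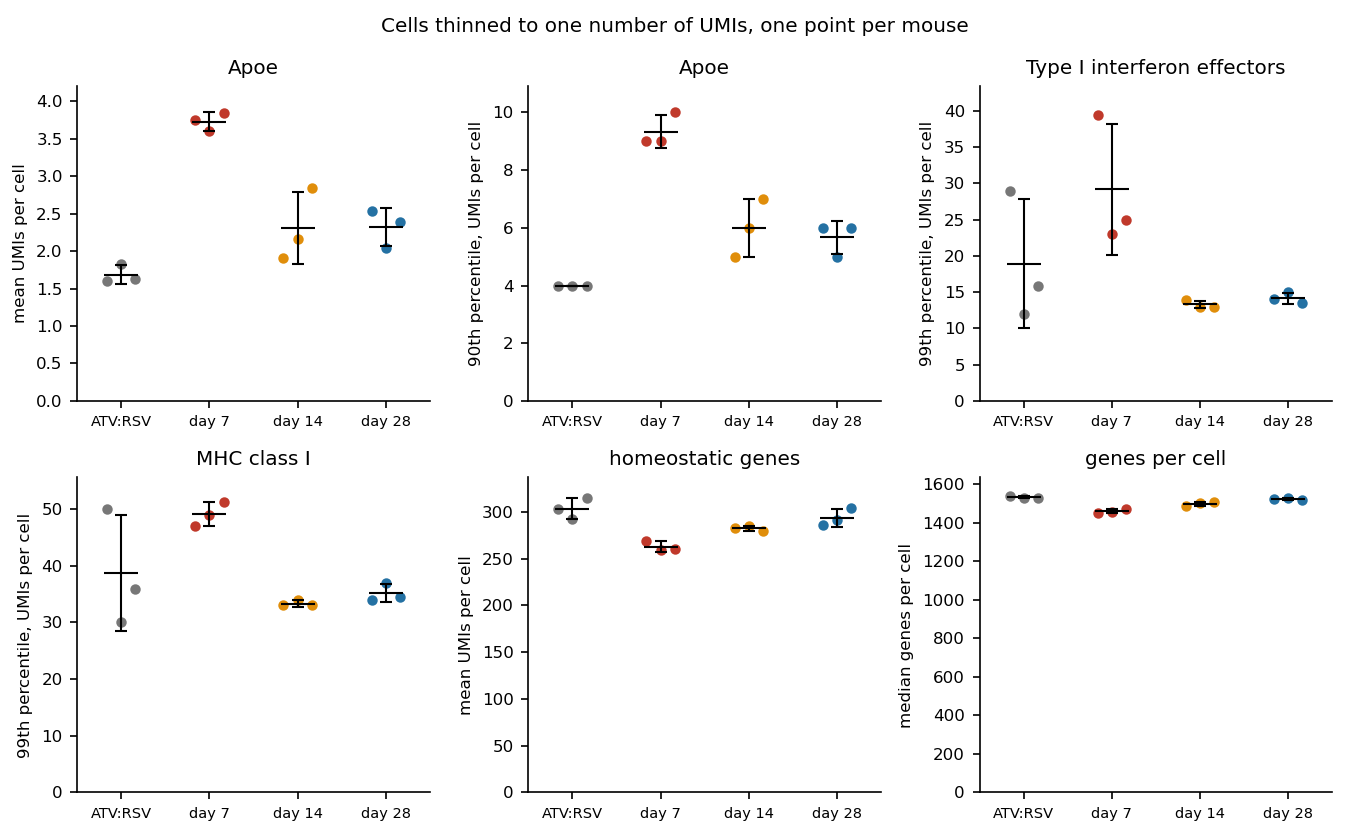
UMIs or genes per cell after thinning to 3385 UMIs, with 1 point per mouse, the mean as a bar and the SD over 3 mice as whiskers, for ATV:RSV and days 7, 14 and 28; every y axis starts at 0. Day 14 mice lie below all day 7 mice in the panels of Apoe, interferon effectors and MHC class I and above them in the panels of homeostatic genes and genes per cell, and 1 ATV:RSV mouse is high for the interferon effectors and MHC class I.

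Other cell types were few and differed somewhat between the days. Cells carrying 3 or more markers of a type other than microglia made up 1.59% to 2.07% of a day 7 library and 2.04% to 2.35% of a day 14 library. By the same count, astrocyte markers were carried by 0.282% to 0.348% of cells at day 7 and 0.513% to 0.699% at day 14, without overlap, although their summed level overlapped between the days. Neuron markers were carried by 0.0790% to 0.0882% and 0.135% to 0.347% of cells. Neutrophil markers summed to 231 to 386 CPM at day 7 and 201 to 207 CPM at day 14, mostly from Csf3r, which microglia also express and which was called lower (-0.18). Monocyte markers summed to 9.85 to 15.6 CPM and 6.80 to 8.42 CPM, and those of dendritic cells to 2.30 to 2.55 CPM and 1.92 to 2.02 CPM. Markers of neurons (12.7 to 15 CPM at day 7, 17.0 to 20.4 at day 14), endothelial cells (15.8 to 17.8 and 18.8 to 20.9) and pericytes (1.55 to 2.38 and 3.07 to 3.34) summed to more at day 14. No marker list was at 0. Without the cells that carried 3 or more such markers 195 genes were called lower and 22 higher, with 17 of 33 interferon effectors and 54 of 83 ribosomal protein genes among the lower. Within the cells of the deposited clusters 0 and 1, taken separately, 13 and 12 interferon effectors and 54 and 70 ribosomal protein genes were called lower, and the interferon medians were -0.80 and -0.74.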

How the data were processed

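Single-cell libraries (10x 3′ v3) of 15 mice were used, 3 per group, grouped by the labels. The authors mapped reads to mm10 with Cell Ranger (4.0.0 per the labels; the study's methods name other versions) and filtered and clustered cells in Seurat. The matrix the authors deposited has raw UMI counts for every gene in every cell, and their deposited table of cells has the UMI counts, the percent of mitochondrial UMIs, the cluster and the mouse; its batch numbers 1, 3 and 4 stand for the labels' 1, 2 and 3. How cells were filtered and doublets treated is not given in the sources used here; the cells have 667 to 24995 UMIs, at least 500 genes and at most 10% mitochondrial UMIs.

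Counts were summed per mouse, filtered with filterByExpr (minimum count 10, minimum total 15), scaled by TMM, and fitted in R 4.3.3 by limma-voom (limma version 3.58.1 with edgeR version 4.0.16) over group means of all 15 mice with the batch as a block. Adjusted p-values are Benjamini-Hochberg over 14260 genes, and calls are at 0.05. CPM uses TMM-scaled library sizes. The script was tested on simulated data. By the labels all conditions were processed in every batch, and this pairs the mice. Deviations of mice from their group had a mean correlation of 0.0539 within batches (30 pairs) and -0.0267 between them (60 pairs). Single pairs within batches ran from -0.225 to 0.259. The deviations cancel within each group, which ties these means to each other, so they are no separate check of the pairing.

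The members and lists were chosen with earlier results of these data known, and lists are described by counts and medians without a test. The text names 25 fixed genes, the 10 highest and 10 lowest called genes that had 10 or more UMIs in every one of the 6 mice and no overlap, up to 3 called members per list by lowest p, and the 10 genes highest at day 7 over ATV:RSV; other genes named were picked after their values were seen. Replicates are separate animals, 1 per group in each batch. Alternatives were DESeq2 (1.42.0), edgeR's quasi-likelihood test, other scaling, filters, cell sets and mice. Some items are not reported here.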

Additional observations from a re-analysis of the deposited data

How the results depend on the processing

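The alternatives were recomputed for 69 genes, and the other genes named in the text were not recomputed singly. Over the 69, 1166 values kept their side of the threshold, 175 lost the call, 18 gained it (Apoe, Isg15, Cd9, Il1b and Ptgs2) and 15 changed sign, all of them values of the uncalled Trem2, Syk, Spp1, Cd74, Mki67 and Csf1r. Calls were lost for Ccl5, Irf7 and Gaa (11 of 20), Dok3 (10), Sh3bp5 and Ifi204 (9), Lox (9 of 19), Cxcl10, Nav1 and Olfm4 (8), Ifit3b and mt-Co1 (7), Irf9, Klhdc8b and Cox4i1 (6), Tlr2, Cd63, Pnp, Gadd45g and Lyzl4 (5), Cd300lf and H2-Q7 (4), Ifi27l2a, H2-Q6 and Fscn1 (3), Jun and C3 (2) and C4b, Oasl2 and H2-Oa (1). Axl, Cst7, Itgax, Clec7a, H2-K1, H2-D1, B2m, Ifitm3, Zbp1, Bst2, Fcgr4, Cxcl16, Ccl12, Lag3, Uqcrh and Malat1 kept their calls in all 20. In the fit of the 6 mice alone Apoe, Isg15 and Il1b gained a call. That fit lost the calls of Irf9, Cd63, Gaa, Cd300lf, Cox4i1, mt-Co1, Gadd45g, Klhdc8b, Nav1, Dok3, Sh3bp5, Fscn1, Lox and Olfm4. The count of 192 genes between day 14 and day 7 was 335 with DESeq2 (290 lower), 110 without ribosomal protein genes (chosen after seeing the data, with 53 called genes left out by construction), 130 with no replicate block and 260 with sample quality weights, and 95 to 130 with 1 of the 6 mice left out: 95 without day 7 replicate 2, 99 without day 7 replicate 3, 107 without day 14 replicate 3 and 111 without day 14 replicate 2. The 1014 genes between day 7 and ATV:RSV were 568 with no replicate block, 2339 by library size alone (460 higher and 1879 lower, with the median of all genes at -0.10) and 528 to 738 with 1 mouse left out, lowest without day 7 replicate 3. The 122 genes between day 14 and ATV:RSV were 57 with no replicate block and 46 to 119 with 1 mouse left out, 46 without day 14 replicate 1 and 71 without ATV:RSV replicate 3. The 19 genes between day 28 and day 14 were 0 with no replicate block, 6 by library size alone, 5 with edgeR and 0 to 0 with 1 mouse left out. Without thinning, day 14 minus day 7 was 127.3 in place of 36.1 genes per cell, and in UMIs per cell -2.39 in place of -1.43 for Apoe, -5.28 in place of -3.65 for MHC class I, -1.96 in place of -1.12 for interferon effectors and 60.0 in place of 19.3 for homeostatic genes, where, as in genes per cell, the days overlapped and batch 3 turned to lower at day 14. The cause of these shifts was not tested. Depth limits genes such as C3, with 9 to 70 UMIs per mouse, and 3 mice per day limit every exact test to a p of 0.1.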

Other observations

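Several further genes that interferon is known to induce were on no list and were picked after their values were seen. The RNA helicase gene Dhx58 (log2 fold change -0.47), the RNA-activated kinase gene Eif2ak2 (-0.35), the ubiquitin ligase gene Rnf213 (-0.52), Phf11a (-1.43) and Lgals3bp (-0.88) fell between day 7 and day 14 by limma-voom, and none of them was called against ATV:RSV at day 14. Il2rg, the chain that several interleukin receptors share, fell by 1.01, and Cd86, a costimulatory ligand for T cells, fell by 0.17. Of 13 transcripts encoded in the mitochondrial genome, 1 was called lower, mt-Co1 of complex IV (-0.21), which lost its call in 7 of 20 alternatives. The median was -0.18, but the batches differed, since the summed level went from 37628 to 39475 CPM in batch 1, from 41336 to 33855 CPM in batch 2 and from 42724 to 33741 CPM in batch 3. Of 20 genes of lipid efflux and storage 0 were called by limma-voom, 16 of 20 were negative and the median was -0.07. Of 31 cell cycle genes 0 were called by limma-voom, and no direction is drawn: 18 were negative and 13 positive with a median of -0.18, while their summed level was 732 to 735 CPM at day 7 and 742 to 770 CPM at day 14.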
